A study of Mus musculus with 45 samples.

Results

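The comparison set wild-type mice on a typical western diet (TWD) against wild-type mice on a standard diet (STD), in the hippocampus and across all 15897 genes of the deposited table. Its members were chosen by labelled genotype and diet alone and are 6 AwTw/TWD and 6 AwTw/STD mice, 12 of the 45 mice of the study. AwTw mice carry neither the APP/PS1 transgene (written A+) nor the tau P301L transgene (T+) that the other 3 genotypes of the study carry, and were littermates of those lines on the C57Bl/6J background. Every mouse was female, started its diet at 7 months of age and was killed at 13 months. The TWD held 21% fat by weight, 0.15% cholesterol and 35% sucrose, and the STD held 5% fat and 0% cholesterol. Polyadenylated RNA of the dissected hippocampus was sequenced after saline perfusion, each mouse being a separate animal, and the question put to these 12 mice was what the diet alone did to hippocampal gene expression without amyloid or tau transgenes.

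A western diet joins saturated fat, cholesterol and refined sugar, and in rodents it is known to bring on obesity and insulin resistance. Insulin acts through its receptor, the Irs adaptors and phosphoinositide 3-kinase (PI3K) to the kinase Akt, which restrains the Foxo transcription factors, and neurons and glia of the hippocampus carry this pathway. Microglia, the resident macrophages of the brain, sense lipids and debris through the receptor Trem2, which signals through the adaptor Tyrobp.

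Values are variance-stabilized expression on a log2-like scale, so that a difference of 1 is close to a doubling for well expressed genes and understates the change of genes with few reads. They ran from 2.98 to 18.08 in the 12 mice, and any pair of these mice correlated across genes with a Pearson r of 0.862 to 0.987. The labels give a batch with no further description, and each diet had 2 mice in batch 0 (AwTw/STD mice 2 and 6, AwTw/TWD mice 4 and 6) and 4 in batch 1. Neurons of the hippocampus were present as labelled: Camk2a, the calcium-dependent kinase of excitatory synapses, lay between 15.65 and 16.42 in the 12 mice. The choroid plexus, which makes cerebrospinal fluid and borders the hippocampus, was most evident in 3 dissections (AwTw/STD mice 1 and 2 and AwTw/TWD mouse 3, called rich in choroid plexus below), with a mean over 16 of its marker genes of 9.62, 9.47 and 9.59. AwTw/TWD mouse 6 and AwTw/STD mouse 5 followed with 8.11 and 7.30, and the other 7 mice had 6.10 to 6.52.

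Expression of 1487 genes, 9.35% of those tested, differed between the diets in wild-type mice (limma, batch as covariate, adjusted p under 0.05). On TWD 956 genes rose (6.01% of all genes) and 531 fell (3.34%), with a median log2 difference of 0.50 among those that rose and −0.65 among those that fell. The changes were small: 486 of the genes that rose and 423 of those that fell moved by more than 0.5, and 5 and 61 by more than 1. Their adjusted p values all lay between 0.0498 and 0.05, so that 0 genes were called at a threshold of 0.01 and 5563 at 0.1, and 6391 genes (40.2%) had an unadjusted p under 0.05, 20.6% of all genes higher and 19.6% lower.

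Because all calls share this narrow range of adjusted p, they stood or fell together. A fit of the 12 AwTw mice alone, in place of the shared fit of the 45 mice, called 1 gene (Dynlt1-ps1, adjusted p = 0.0151) with 5388 genes at an unadjusted p under 0.05. Leaving out any of AwTw/STD mice 1, 3, 4 and 5 or AwTw/TWD mice 1, 2, 3 and 6 left 0 genes called by limma, with 3881 to 5928 genes at an unadjusted p under 0.05. In contrast, 4590 were called without AwTw/STD mouse 2, 5188 without AwTw/STD mouse 6, 3560 without AwTw/TWD mouse 4 and 6072 without AwTw/TWD mouse 5. Leaving out the 3 mice rich in choroid plexus left 0 called and 3818 at an unadjusted p under 0.05. Each statement below that a gene rose or fell carries these limits. Every one of the 1487 genes kept its sign in each of these refits, but the refits reuse most or all of the mice that gave the calls. In batch 0 alone 1244 of the 1487 kept their sign, with a median of 0.07 for the genes that rose and −0.15 for those that fell. The mice of batch 0 were among those that gave the calls, so this count is not independent of them. Of genes called higher in batch 1 alone, 51.9% were higher in batch 0 (48.4% of all genes). Of those called lower, 58.0% were lower (51.5% of all genes).

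**Figure D1:**
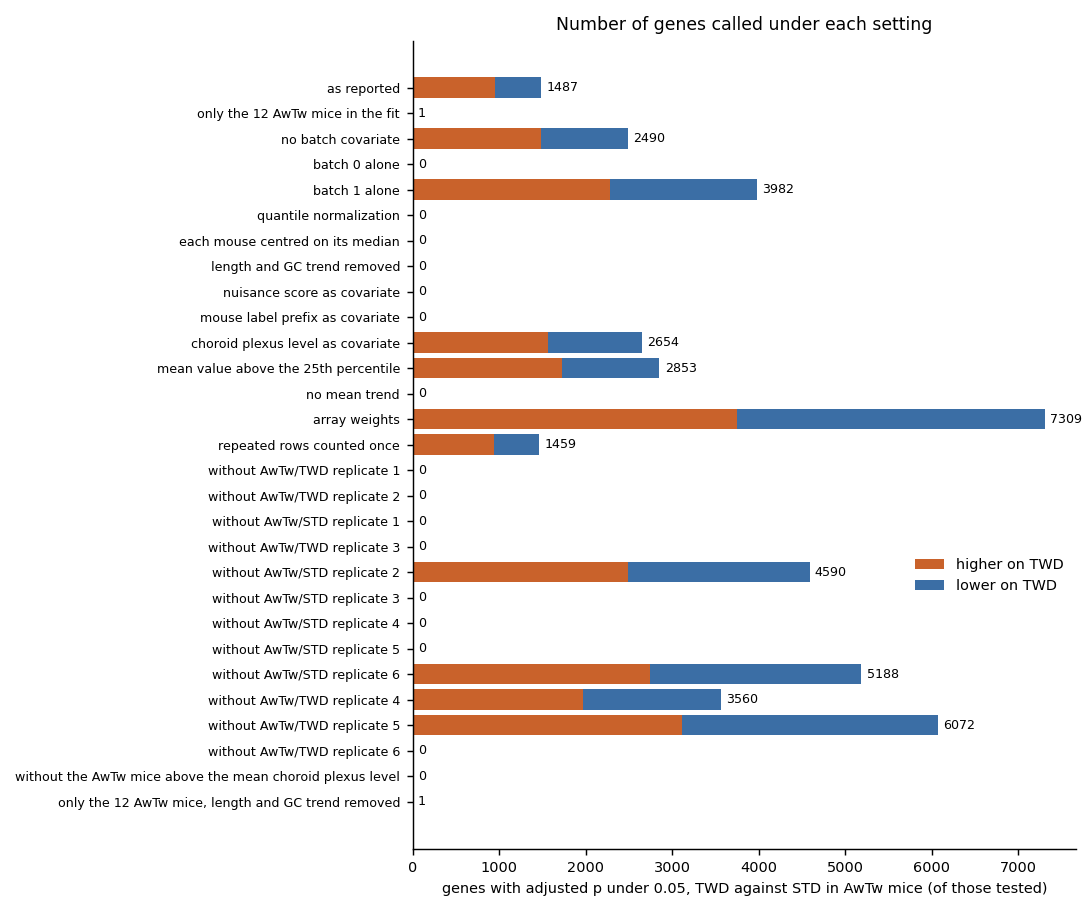
Number of genes with an adjusted p under 0.05 (horizontal axis, genes called) in each setting of the analysis (vertical axis), split into genes higher on TWD (orange) and lower on TWD (blue). The bars run from 0 in 16 of the settings shown to 7309 with array weights, and the analysis as reported gave 1487.

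Single genes that set every mouse of one diet apart from every mouse of the other were few. The values of 56 genes (0.352% of all) did not overlap between the diets, 32 higher on TWD (0.201%) and 24 lower (0.151%). The 8 called genes of this kind with the largest rise and the 8 with the largest fall are described next.

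Mocs1, which catalyses the first step of molybdenum cofactor synthesis (chr17:49428362-49455435 of GRCm38, plus strand), had the smallest p of all genes. Its values were 6.95, 7.42 and 7.62 (lowest, median and highest) in the AwTw/STD mice and 7.81, 7.96 and 8.21 in the AwTw/TWD mice. Every TWD mouse lay above every STD mouse, and Mocs1 rose by a log2 difference of 0.64 ± 0.13 (SE, n = 6 per diet, adjusted p = 0.0498), with 0.49 in batch 0 and 0.71 in batch 1. Baiap2l2 encodes a membrane-bending protein of the I-BAR family (chr15:79258195-79285537, minus strand), and its values were 5.54, 5.76 and 5.86 on STD and 5.96, 6.37 and 6.87 on TWD. The 2 groups did not overlap, AwTw/TWD mouse 5 being the lowest on its diet, and Baiap2l2 rose by 0.65 ± 0.15 (adjusted p = 0.0498, batch 0 0.61, batch 1 0.66). Tap1, a subunit of the transporter that loads peptides onto major histocompatibility complex class I (chr17:34187553-34197225, plus strand), went from 6.23, 6.52 and 6.72 on STD to 6.85, 7.11 and 7.34 on TWD. It too separated the diets and rose by 0.62 ± 0.15 (adjusted p = 0.0498), by 0.37 in batch 0 and 0.75 in batch 1. Rpusd3, a pseudouridine synthase family protein of mitochondria (0.61 ± 0.15), Fuz, which takes part in the building of primary cilia (0.60 ± 0.16), the methyltransferase Mettl22 (0.50 ± 0.14) and the tetraspanin Tspan17 (0.49 ± 0.15) rose without overlap as well, with batch 0 differences of 0.32, 0.43, 0.35 and 0.21. The eighth, the processed pseudogene Gm9063 (0.60 ± 0.19), may share reads with copies of its parent gene, and its value is uncertain for that reason.

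**Figure D2:**
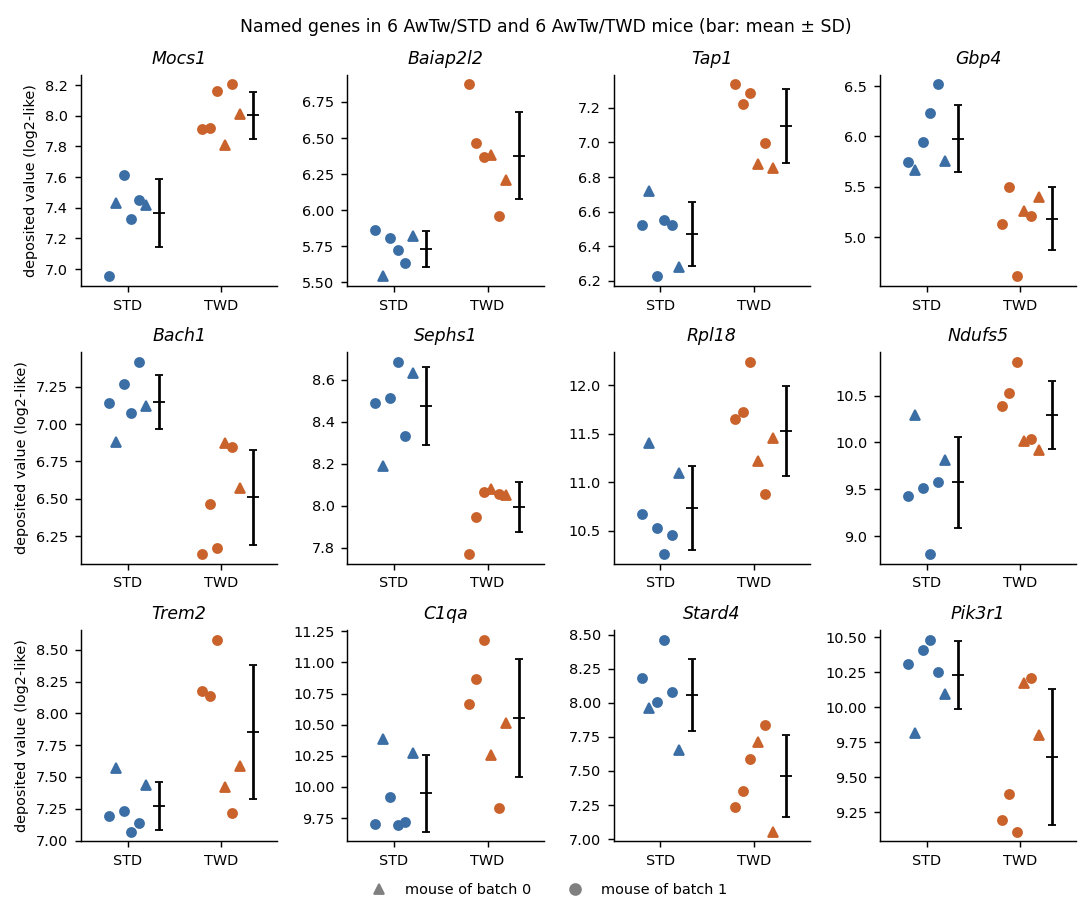
Deposited log2-like value (vertical axis) of 12 named genes in each AwTw/STD (blue) and AwTw/TWD (orange) mouse, with triangles for batch 0, circles for batch 1 and bars for the mean ± SD of 6 mice. Mocs1, Baiap2l2, Tap1, Gbp4, Bach1 and Sephs1 were chosen among genes whose values do not overlap between the diets. Their separation within each batch follows from that choice. In Rpl18, Ndufs5, Trem2, C1qa and Pik3r1, which were not chosen in this way, the triangles of the diets lie close together.

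Among the genes that fell without overlap were 2 induced by interferon. Gbp4, a guanylate-binding protein (chr5:105115767-105139586, minus strand), read 5.67, 5.85 and 6.52 on STD and 4.61, 5.24 and 5.50 on TWD. No TWD mouse reached the lowest STD mouse, and Gbp4 fell by 0.79 on the log2 scale (SE 0.16, adjusted p = 0.0498), with −0.38 in batch 0 and −0.998 in batch 1. Ifit1bl1, of the interferon-induced Ifit family, fell with a log2 difference of −0.59 ± 0.16. A list of 18 other interferon-stimulated genes, described below, had 14 members higher on TWD and a median of 0.29, and Tap1, which rose, is induced by interferon as well. Bach1, a heme-regulated repressor of antioxidant genes, had 6.88, 7.13 and 7.42 on STD and 6.13, 6.52 and 6.87 on TWD, a difference of −0.64 ± 0.20 (adjusted p = 0.0498, batch 0 −0.28, batch 1 −0.82), the lowest STD and highest TWD mouse nearly touching. Apold1, an early response gene of endothelium (−0.56 ± 0.14, −0.52 in batch 0 and −0.58 in batch 1), Shroom4, an actin-binding protein (−0.51 ± 0.17), and Sephs1, of the selenophosphate synthetase family (−0.48 ± 0.14), fell too.

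The 2 largest of these falls were of transcripts that are hard to count. Dynlt1-ps1, a processed pseudogene of a dynein light chain (chr6:135349408-135349749, minus strand), read 5.17, 5.42 and 5.97 on STD and 4.11, 4.11 and 4.57 on TWD. AwTw/TWD mice 1, 2, 3 and 5, all of batch 1, had the identical value of 4.11. Mice 4 and 6, of batch 0, shared the value 4.57, so the TWD values had no spread within a batch. Whether these identical values are a floor of the scale was not tested, and no counts were available to judge it. Dynlt1-ps1, also the gene called in the fit of the 12 AwTw mice alone, fell by 1.21 on the log2 scale (SE 0.31, adjusted p = 0.0498, batch 0 −1.01, batch 1 −1.31). A pseudogene can share reads with its parent, and the value is uncertain. Gm47578, a noncoding gene annotated as antisense, read 5.46, 5.56 and 6.16 on STD and 4.17, 4.66 and 5.29 on TWD, with AwTw/TWD mice 1 and 3 both at 4.17. It differed by −1.03 ± 0.30, and its value is uncertain. The library kit kept the strand of the RNA, but whether the counting used it is not given in the sources used here.

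Several of the genes with the smallest p overlapped between the diets. Znrf2, a RING-type ubiquitin ligase, read 8.06, 8.51 and 8.88 on STD and 6.28, 7.49 and 8.21 on TWD. It fell by 1.16 on the log2 scale (SE 0.25, adjusted p = 0.0498), with −0.37 in batch 0 and −1.55 in batch 1. Tnrc6a, a scaffold of microRNA silencing, fell (−0.77 ± 0.17), and so did Exd1 (−0.69 ± 0.15), which was lower by more in batch 0 (−0.97) than in batch 1 (−0.55), and the homeodomain factor Onecut1 (−0.57 ± 0.13). Lin37, a subunit of the DREAM complex that represses cell cycle genes, read 7.78, 8.03 and 8.62 on STD and 8.23, 9.09 and 9.68 on TWD. It rose by 0.89 ± 0.21 (adjusted p = 0.0498, batch 0 0.44, batch 1 1.11).

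The gene list with the most members called was that of the cytosolic ribosomal proteins, the protein part of the machinery that translates messenger RNA. Of 82 measured, 32 rose and 0 fell (all genes: 6.01% and 3.34%), the median log2 difference of the list was 0.56 against 0.00 over all genes, and both subunits took part, with 17 of 49 large and 15 of 33 small subunit genes. Rpl18 of the large subunit (chr7:45715457-45720836, plus strand) read 10.26, 10.60 and 11.40 on STD and 10.88, 11.55 and 12.24 on TWD. It rose by 0.79 ± 0.23 (adjusted p = 0.0498). AwTw/STD mice 2 and 6, both of batch 0, were the highest on STD and AwTw/TWD mouse 5 the lowest on TWD, so that the groups overlapped. Fau, which encodes a small subunit protein joined to a ubiquitin-like protein (chr19:6057844-6059524, plus strand), read 10.51, 10.80 and 11.83 on STD and 11.03, 11.90 and 12.59 on TWD, and rose by 0.87 ± 0.26 (adjusted p = 0.0498). Rplp0, of the stalk that recruits elongation factors (0.59 ± 0.17), and Rpl29 (0.79 ± 0.23) rose as well.

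The rise of the ribosomal genes was seen in the mice of batch 1. The list's median difference there was 0.83, with 81 of 82 genes higher on TWD, and in batch 0 it was −0.07, with 9 of 82 higher. The mean of the 82 genes in the STD mice was 11.73 in mouse 2 and 11.16 in mouse 6 (batch 0) and 10.79 to 10.98 in the other 4, whereas in the TWD mice it was 11.37 in mice 4 and 6 (batch 0), 11.10 in mouse 5 and 11.72 to 11.95 in mice 1, 2 and 3. Rpl18 differed by 0.09 in batch 0 and 1.14 in batch 1, and Fau by −0.02 and 1.31.

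**Figure D3:**
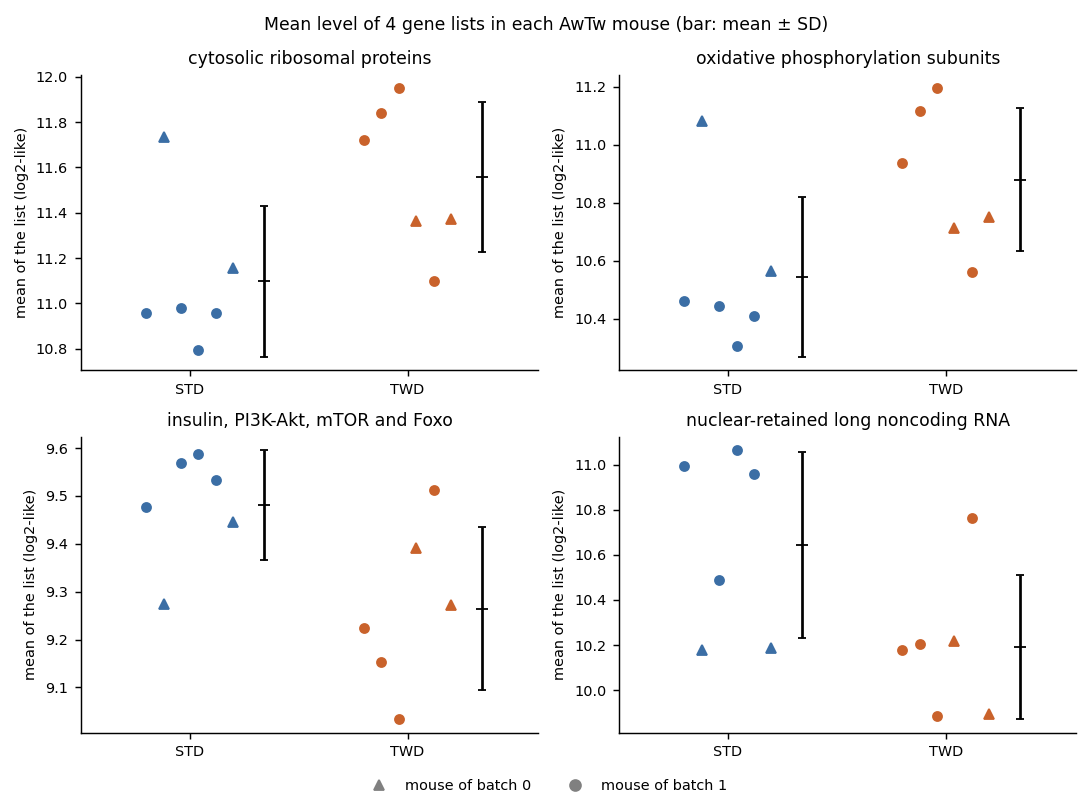
Mean log2-like value of 4 gene lists (vertical axes) in each AwTw/STD (blue) and AwTw/TWD (orange) mouse, with triangles for batch 0, circles for batch 1 and bars for the mean ± SD of 6 mice. AwTw/STD mouse 2 and AwTw/TWD mouse 5 lie toward the other diet in the ribosomal, oxidative phosphorylation and PI3K panels.

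The 250 bases before the start site are shown for 4 genes of the groups described here, from RefSeq on GRCm38.p6, each on the strand of its gene and from 5′ to 3′. Capitals mark the letters of 2 of the motifs searched on both strands, TGACGTCA (the cAMP response element) and CCAAT or its reverse complement ATTGG (the CCAAT box). The 2 ribosomal protein genes are shown because both hold a cAMP response element, Mvd of cholesterol synthesis because it holds a CCAAT box on each strand, and Pik3r1 of the PI3K list because it is the regulatory subunit that the study names for the diet. The regions are chr7:45717821-45718070 (plus strand) for Rpl18, chr19:6057697-6057946 (plus) for Fau, chr8:122443423-122443672 (minus) for Mvd and chr13:101768218-101768467 (minus) for Pik3r1, the upstream one of its 2 annotated starts. Starts are those of RefSeq, and those of Rpl18 and Fau lie inside the spans given above.
Rpl18: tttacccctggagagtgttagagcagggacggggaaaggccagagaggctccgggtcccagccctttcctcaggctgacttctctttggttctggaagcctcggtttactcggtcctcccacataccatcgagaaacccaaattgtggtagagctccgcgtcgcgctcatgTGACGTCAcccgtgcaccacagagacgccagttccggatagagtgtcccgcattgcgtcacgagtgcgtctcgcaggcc
Fau: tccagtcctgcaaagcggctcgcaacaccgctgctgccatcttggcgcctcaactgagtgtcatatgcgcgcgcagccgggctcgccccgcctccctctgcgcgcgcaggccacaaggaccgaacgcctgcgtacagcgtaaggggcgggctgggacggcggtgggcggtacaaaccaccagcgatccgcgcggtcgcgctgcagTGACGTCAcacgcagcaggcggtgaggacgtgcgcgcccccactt
Mvd: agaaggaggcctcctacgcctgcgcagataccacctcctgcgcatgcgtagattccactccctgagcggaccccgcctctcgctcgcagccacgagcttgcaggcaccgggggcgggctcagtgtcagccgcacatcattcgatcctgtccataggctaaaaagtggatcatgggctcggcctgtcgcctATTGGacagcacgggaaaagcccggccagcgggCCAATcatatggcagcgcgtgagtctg
Pik3r1: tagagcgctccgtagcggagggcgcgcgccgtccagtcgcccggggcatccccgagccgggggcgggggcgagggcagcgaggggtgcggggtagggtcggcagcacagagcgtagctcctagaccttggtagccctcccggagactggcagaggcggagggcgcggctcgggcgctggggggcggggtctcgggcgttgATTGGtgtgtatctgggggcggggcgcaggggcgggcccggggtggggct

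In the windows of 250 bases before to 50 after each start, the cAMP response element was found in 8.33% of 72 promoters of the ribosomal list (61 of 82 genes had a promoter sequence), 3.91% of 971 promoters of the genes that rose, 3.18% of 503 of those that fell, 2.89% of 14930 of the genes tested and 1.79% of all 32851 promoters. The letters CCGGAAG, bound by Ets factors such as Elf1, stood in 36.1% of the ribosomal promoters, 21.7% of those of genes that rose, 14.9% of those that fell, 15.2% of those tested and 8.86% of all. The Foxo letters GTAAACA were in 2.57% of promoters of genes that rose and 2.19% of those that fell, against 2.55% of those tested and 3.65% of all. The E-box CACGTG was in 10.3%, 12.1%, 9.4% and 7.15% of these 4 sets in the same order, the TATA box TATAAA in 6.18%, 7.95%, 7.43% and 13.6%, and the CCAAT box in 38.1%, 34.6%, 37.2% and 37.4%. Within the list of cholesterol genes 67.9% of 28 promoters held a CCAAT box. These matches of letters are descriptions and were not tested, the motifs do not overlap in the sequences printed, and the GC content of the promoters was 61.0% for genes that rose, 61.5% for those that fell and 60.3% for those tested.

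Genes of the mitochondria and of energy metabolism followed the ribosome. Mitochondrial ribosomal proteins, which translate the few proteins encoded in the organelle, had 14 of 78 members that rose (17.9%) and 0 that fell, against 6.01% and 3.34% of all genes. Their median was 0.29 (−0.04 in batch 0, 0.43 in batch 1). Mrps12 read 8.69, 9.14 and 9.68 on STD and 9.28, 9.94 and 10.30 on TWD. It rose by 0.68 ± 0.19 (adjusted p = 0.0498), and Mrpl51, Mrps21 and Mrpl54 rose by 0.57 ± 0.17, 0.64 ± 0.19 and 0.69 ± 0.21.

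Subunits of oxidative phosphorylation, the respiratory chain and ATP synthase, rose in 12 of 79 genes (15.2%) and fell in 0, against 6.01% and 3.34% of all genes. Their median was 0.47, which was −0.08 in batch 0 and 0.74 in batch 1. By complex, 5 of 36 genes of complex I rose, 0 of 4 of complex II, 3 of 9 of complex III, 2 of 12 of complex IV and 2 of 18 of complex V. Cyc1, the cytochrome c1 of complex III, read 10.39, 10.76 and 11.11 on STD and 10.93, 11.36 and 11.62 on TWD. It rose by 0.53 ± 0.14 (adjusted p = 0.0498). Ndufs5 of complex I read 8.81, 9.55 and 10.30 on STD and 9.92, 10.21 and 10.86 on TWD, a rise of 0.72 ± 0.20 (adjusted p = 0.0498) that was −0.09 in batch 0 and 1.12 in batch 1. All 6 TWD mice lay above 5 of the 6 STD mice in this gene, and AwTw/STD mouse 2 lay among the TWD mice. Ndufa11 of complex I (0.79 ± 0.23) and Atp5d of the ATP synthase (0.68 ± 0.20) rose as well.

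Of the enzymes of glycolysis 7 of 16 (43.75%) rose and 0 fell, against 6.01% and 3.34% of all genes (median 0.38). Of the citric acid cycle 1 of 15 rose (6.67%, against 6.01% of all genes), Mdh2 by 0.43 (median 0.02). Eno1, the enolase, read 13.31, 13.69 and 14.11 on STD and 13.84, 14.34 and 14.73 on TWD. It rose by 0.56 ± 0.16 (adjusted p = 0.0498, batch 0 0.04, batch 1 0.82). Gapdh, a gene often used as an internal reference, rose by 0.56 ± 0.18 (15.31, 15.52 and 16.08 on STD, 15.63, 16.28 and 16.60 on TWD), and Tpi1 and Aldoa rose by 0.49 ± 0.15 and 0.50 ± 0.16. Proteasome subunits, which degrade ubiquitin-tagged proteins, rose in 6 of 32 genes (18.75%, against 6.01% of all genes) and fell in 0, with a median of 0.19. Adrm1, a ubiquitin receptor of the proteasome, rose by 0.60 ± 0.17, Psmb3 and Psmb6 of the core by 0.59 ± 0.18 and 0.60 ± 0.19, and Psmd3 of the lid by 0.36 ± 0.11.

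**Figure D4:**
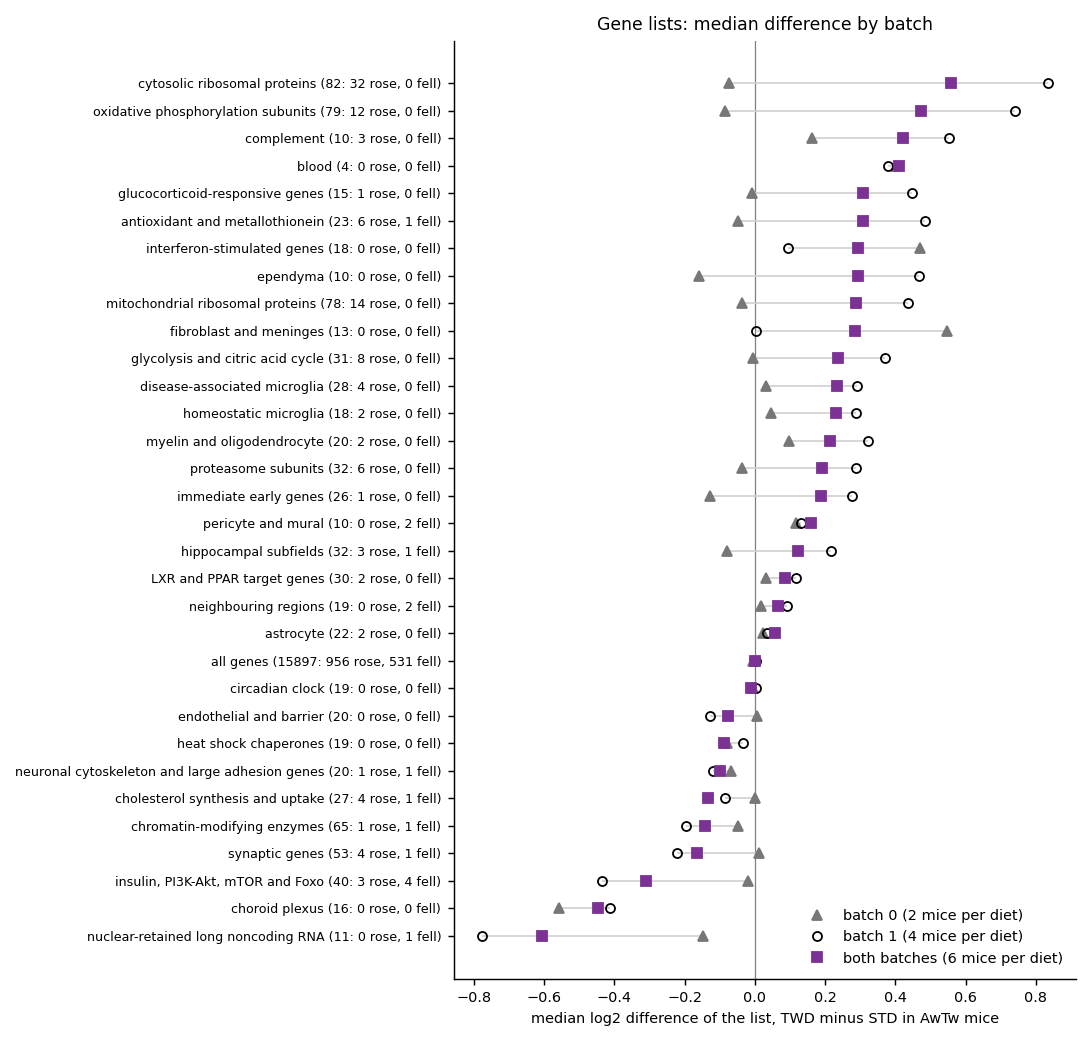
Median log2 difference, TWD minus STD (horizontal axis), of each gene list in AwTw mice, from both batches (squares), batch 0 (triangles) and batch 1 (open circles), with the number of measured genes and of genes that rose or fell beside each name. The ribosomal and oxidative phosphorylation lists reach 0.83 and 0.74 in batch 1 and lie at −0.07 and −0.08 in batch 0.

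The insulin and PI3K pathway held genes that moved in both directions. Of 40 measured genes from the receptor to Foxo, 3 rose and 4 fell (7.5% and 10%, against 6.01% and 3.34% of all genes). The median was −0.31 (−0.02 in batch 0, −0.43 in batch 1). At an unadjusted p under 0.05, 19 were lower and 8 higher, where 19.6% and 20.6% of all genes were. Irs1, the adaptor that insulin and Igf1 receptors phosphorylate, read 7.86, 8.27 and 8.39 on STD and 7.17, 7.45 and 8.17 on TWD. It fell by 0.60 on the log2 scale (SE 0.18, adjusted p = 0.0498). AwTw/TWD mice 1, 2, 3 and 6 lay below every STD mouse and mice 4 and 5 did not, and the difference was −0.20 in batch 0 and −0.80 in batch 1.

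Pik3r1, the regulatory subunit p85 alpha of PI3K (chr13:101680563-101768217, minus strand), read 9.82, 10.28 and 10.48 on STD and 9.11, 9.59 and 10.21 on TWD. AwTw/TWD mice 1, 2 and 3 stood well below the STD mice, mouse 6 just below the lowest of them, and mice 4 and 5 within their range. Pik3r1 fell by 0.58 (SE 0.19, adjusted p = 0.0498), with 0.03 in batch 0 and −0.89 in batch 1. The study names this gene for the diet from the same animals, so its direction here is not independent evidence. Its relative Pik3r2, the p85 beta subunit, rose by 0.46 ± 0.14 (9.87, 10.09 and 10.58 on STD, 10.11, 10.63 and 11.01 on TWD), with 0.00 in batch 0 and 0.69 in batch 1.

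Foxo6, the Foxo factor enriched in hippocampal neurons, read 8.48, 8.91 and 9.48 on STD and 9.04, 9.66 and 10.11 on TWD. It rose by 0.67 ± 0.20 (adjusted p = 0.0498, batch 0 0.00, batch 1 1.00). Foxo1 did not pass, at −0.58 ± 0.21 (adjusted p = 0.0532), and neither did the other transcriptional regulators that the study names, the acetyltransferase Ep300 (−0.37 ± 0.21, adjusted p = 0.182) and the Ets factor Elf1 (−0.37 ± 0.14, adjusted p = 0.0644). Chosen after their values were seen, further called members were the catalytic subunit Pik3cb (−0.43 ± 0.14) and Tsc2, a brake on mTOR (0.55 ± 0.18). Just above the threshold, and likewise seen first, lay the insulin receptor Insr (−0.69 ± 0.23, adjusted p = 0.0501) and the kinase Gsk3b (−0.71 ± 0.24, adjusted p = 0.0506). In batch 0 they differed by −0.01 and −0.14, and in batch 1 Insr differed by −1.04.

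The diet that carries cholesterol was set against the genes that make and take it up. Of 20 synthesis enzymes 4 rose and 0 fell, of 5 sensors and regulators 0 passed, and of 2 measured uptake genes 1 fell, with a median over the 27 of −0.13. Of the 27, 14.8% rose and 3.70% fell, against 6.01% and 3.34% of all genes. Mvd, the mevalonate diphosphate decarboxylase (chr8:122433601-122443422, minus strand), read 7.92, 8.01 and 8.48 on STD and 8.27, 8.71 and 9.02 on TWD. It rose by 0.56 ± 0.15 (adjusted p = 0.0498), by 0.08 in batch 0 and 0.79 in batch 1. Pmvk, which acts one step earlier (0.50 ± 0.14), the sterol reductase Tm7sf2 (0.43 ± 0.11) and the farnesyl diphosphate synthase Fdps (0.52 ± 0.15, named after its value was seen) rose too. Stard4, a carrier of cholesterol between membranes, went the other way, with 7.65, 8.04 and 8.46 on STD and 7.05, 7.47 and 7.84 on TWD, and fell by 0.60 (SE 0.15, adjusted p = 0.0498, batch 0 −0.43, batch 1 −0.68).

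Targets of the sterol and fatty acid receptors LXR and PPAR rose in 2 of 30 genes (6.67%, near the 6.01% of all genes), Fasn, the fatty acid synthase (0.49 ± 0.16, −0.12 in batch 0 and 0.80 in batch 1), and Fabp3, a fatty acid carrier (0.51 ± 0.16), and fell in 0, with a median of 0.09.

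Microglial genes were called higher in part of each list. In bulk tissue fewer cells of a type and less RNA per cell cannot be told apart, and this holds for every cell type below. Of 18 homeostatic microglia genes 2 rose (11.1%, against 6.01% of all genes) and 0 fell (median 0.23). The 2 were Aif1, the actin-binding protein Iba1 (0.56 ± 0.16), and Cst3, an inhibitor of cathepsins that astrocytes make as well (0.62 ± 0.18). Aif1 differed by 0.14 in batch 0 and 0.76 in batch 1, and Cst3 by −0.06 and 0.96. The study reports a rise of Iba1 expression in wild-type mice on TWD from the same animals, so the direction of Aif1 here is not independent evidence. Csf1r, the receptor microglia need to survive, differed by 0.29 ± 0.12 (adjusted p = 0.0699), and among 10 surface receptors 0 passed, with a median of 0.07.

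Of 28 genes of disease-associated microglia 4 rose (14.3%, against 6.01% of all genes) and 0 fell, with a median of 0.23 (0.03 in batch 0, 0.29 in batch 1). Trem2 (chr17:48346401-48354147, plus strand) read 7.07, 7.21 and 7.57 on STD and 7.21, 7.86 and 8.58 on TWD, and AwTw/TWD mice 1, 2 and 3 lay far above the STD range, mouse 6 just above it and mice 4 and 5 inside it. It rose by 0.58 ± 0.19 (adjusted p = 0.0498), with 0.00 in batch 0 and 0.87 in batch 1. Tyrobp (chr7:30413760-30417585, plus strand) read 7.83, 8.06 and 8.58 on STD and 8.19, 8.62 and 9.22 on TWD. It rose by 0.55 ± 0.18, with 0.03 in batch 0 and 0.80 in batch 1. Both are named by the study for the diet from these animals and are no independent evidence of a direction. Apoe, the main lipid carrier of brain (0.50 ± 0.17), and Fth1, the ferritin heavy chain (0.47 ± 0.16), rose, while genes that mark the plaque response, Cst7, Itgax and Clec7a, looked up after the calls, stood at means of 5.01 to 5.35 on either diet with adjusted p from 0.263 to 0.695.

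The 3 chains of complement C1q, which tags synapses and debris and is made by microglia, rose together. They were the called members among 10 complement genes (30%, where 6.01% of all genes rose, median 0.42). C1qc read 9.30, 9.48 and 9.95 on STD and 9.53, 10.34 and 10.94 on TWD. It rose by 0.67 ± 0.20 (adjusted p = 0.0498, batch 0 0.08, batch 1 0.97), C1qa by 0.61 ± 0.20 and C1qb by 0.63 ± 0.21. Among 18 interferon-stimulated genes 0 passed the test of limma at the adjusted threshold. At an unadjusted p under 0.05, 6 were higher and 0 lower, where 20.6% and 19.6% of all genes were. The median of this list was 0.29, larger in batch 0 (0.47) than in batch 1 (0.09).

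Neuronal lists held called genes of both signs. Of 53 synaptic genes 4 rose and 1 fell (7.55% and 1.89%, against 6.01% and 3.34% of all genes), with a median of −0.17. At an unadjusted p under 0.05, 18 were lower and 9 higher, where 19.6% and 20.6% of all genes were. Grin1, the obligate subunit of NMDA receptors, read 12.56, 12.85 and 13.49 on STD and 12.90, 13.66 and 13.98 on TWD. It rose by 0.61 ± 0.19 (adjusted p = 0.0498, batch 0 0.09, batch 1 0.87), whereas its partner Grin2a, named after its value was seen, fell (−0.84 ± 0.27). The presynaptic genes Syp (0.45 ± 0.14) and Sv2a (0.46 ± 0.15) and the gene of the fusion protein Stx1a (0.40 ± 0.13) rose, and Snap25 (0.02 ± 0.08, adjusted p = 0.86) and Camk2a (0.03 ± 0.13, adjusted p = 0.888) did not pass.

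Immediate early genes, which neuronal activity induces, rose in 1 of 26 genes (3.85%, against 6.01% of all genes), Junb (0.69 ± 0.20, with −0.03 in batch 0 and 1.06 in batch 1), and the median was 0.19. Of 65 chromatin-modifying enzymes 1 rose and 1 fell (1.54% each, against 6.01% and 3.34% of all genes). The methyltransferase Setd2 rose (0.40 ± 0.12, 0.33 in batch 0 and 0.44 in batch 1) and its relative Setd5 fell (−0.42 ± 0.13), with a median of −0.14. In a list of 20 neuronal cytoskeleton and large adhesion genes 1 rose and 1 fell (5% each, against 6.01% and 3.34% of all genes). The spectrin Sptan1 rose (0.50 ± 0.16), and Herc1, a giant ubiquitin ligase placed in this list, fell (−0.61 ± 0.18). Of 11 long noncoding RNAs kept in the nucleus, Rian of the imprinted Dlk1-Dio3 locus fell (−0.72 ± 0.24), or 9.09% against 3.34% of all genes. Of the 11, 10 were lower on TWD, with a median of −0.61 (−0.15 in batch 0, −0.78 in batch 1).

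Markers of the hippocampal subfields were detected, all 32 of 32, and 4 were called (9.4% rose and 3.1% fell, against 6.01% and 3.34% of all genes). The CA3 gene Bok rose (0.60 ± 0.17), as did the neuropeptide genes Sst (11.72, 12.12 and 12.75 on STD, 12.29, 12.75 and 12.96 on TWD, 0.52 ± 0.16) and Cck (0.66 ± 0.22), while the neuropeptide gene Vip fell (−0.41 ± 0.14) with a difference of 0.13 in batch 0. Of 19 genes of neighbouring regions that a dissection could include, 2 of the striatum fell (10.5%, against 3.34% of all genes), among them the phosphodiesterase Pde10a (−0.65 ± 0.21). The 7 striatal genes had a mean level of 7.58 to 7.81 on STD and 7.29 to 7.61 on TWD. Striatal Ppp1r1b was at 0.41 ± 0.29 (adjusted p = 0.277), and the part of dissection in these values was not tested.

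Glial and vascular markers gave few calls. In the myelin list 2 of 20 rose (10%, against 6.01% of all genes), the phosphodiesterase Cnp (0.51 ± 0.16) and the lineage factor Sox10 (0.45 ± 0.14). The abundant myelin genes Mbp (0.33 ± 0.15, adjusted p = 0.0908) and Mobp (0.14 ± 0.14) did not pass. Among 22 astrocyte genes 2 rose (9.09%, against 6.01% of all genes), Aldh1l1, an enzyme of folate metabolism (0.39 ± 0.12), and the filament gene Vim (0.68 ± 0.21). The glutamate transporter Slc1a2 was at −0.79 ± 0.29 (adjusted p = 0.0549). Of 10 pericyte and mural genes Rgs5, a regulator of G protein signalling (−0.77 ± 0.24), and the potassium channel subunit Abcc9 (−0.47 ± 0.15) fell. They made up 20% of the list, against 3.34% of all genes, although 7 of the 10 were higher on TWD.

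Markers of endothelium and of tissues around the hippocampus were tested as well, and by limma 0 passed among 20 endothelial and barrier genes (6 at an unadjusted p under 0.05, median −0.08), 13 fibroblast and meningeal genes (1, median 0.29), 16 choroid plexus genes (0, median −0.45), 10 ependymal genes (1, median 0.29) and 4 measured blood genes (0, median 0.41). Among all genes 40.2% had an unadjusted p under 0.05, a larger share than in any of these lists. The mean level of these lists ranged over 7.72 to 9.41 on STD and 7.69 to 9.59 on TWD for fibroblasts, 6.30 to 9.62 and 6.10 to 9.59 for choroid plexus, 6.28 to 7.52 and 6.66 to 7.80 for ependyma and 5.49 to 7.16 and 6.10 to 7.59 for blood. Defining genes such as Ttr, Foxj1 and Hbb-bs were detected on both diets. With the choroid plexus level of each mouse as a covariate 2654 genes were called, all of the 1487 among them, against 0 without the 3 mice rich in choroid plexus. The part of the other lists in the genes called was not tested.

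The last lists concern stress and rhythm. Of 23 antioxidant and metal-handling genes 6 rose and 1 fell (26.1% and 4.35%, against 6.01% and 3.34% of all genes), with a median of 0.31. Those that rose included Mt1, a metallothionein (11.10, 11.36 and 12.12 on STD, 11.59, 12.23 and 12.77 on TWD, 0.77 ± 0.24), Prdx5, a peroxiredoxin (0.57 ± 0.18), and Ftl1, the ferritin light chain (0.52 ± 0.17). Gclc, the catalytic subunit that begins glutathione synthesis, fell (−0.38 ± 0.12), and Mt1 and Prdx5 each differed by −0.02 in batch 0. Mt1 was also the called gene among 15 glucocorticoid-responsive genes (6.67%, where 6.01% of all genes rose). Of 19 circadian clock genes and 19 heat shock chaperones 0 passed by limma, with 8 and 13 at an unadjusted p under 0.05 (40.2% of all genes) and medians of −0.01 and −0.09.

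Beyond their functions, the genes that rose and fell differed in transcript length and base composition, which the comparison did not use. Genes that rose had a median transcript length of 918 bases and a GC content of 56.4%, and genes that fell 2269 bases and 44.9%, against 1504 bases and 50.8% over all genes. In the fifth of genes with the lowest GC content 273 fell and 2 rose (median difference −0.44), and in the fifth with the highest 504 rose and 6 fell (median 0.28). In the fifth with the shortest transcripts 313 rose and 63 fell, and in the fifth with the longest 37 rose and 186 fell. These gradients were present in batch 1, where the medians of the GC classes ran from −0.65 to 0.40, and not visible in batch 0, where they ran from −0.02 to 0.02.

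**Figure D5:**
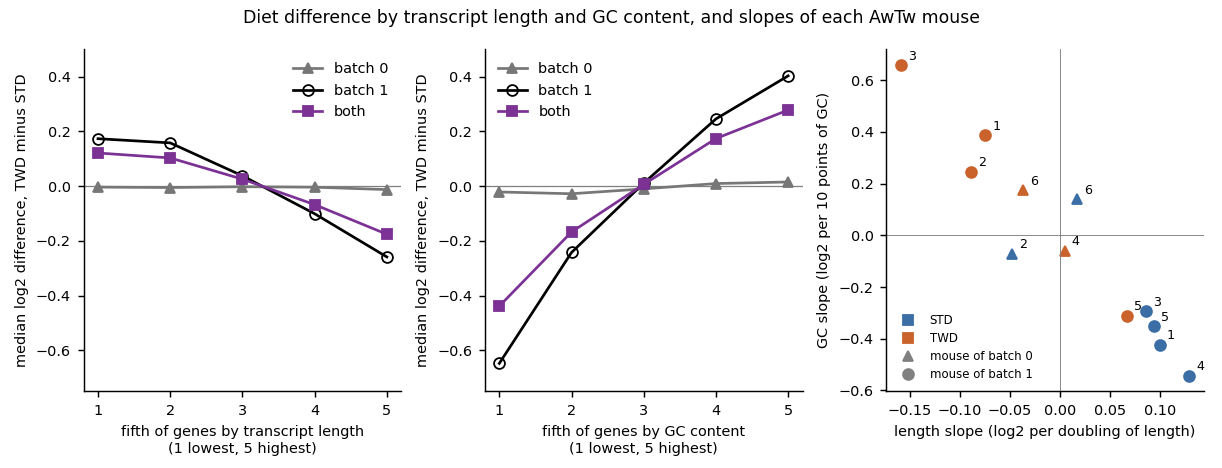
Left and middle, median log2 difference, TWD minus STD, of genes in 5 equal classes of transcript length and of GC content (batch 0 grey triangles, batch 1 open circles, both purple squares). Right, slope of each AwTw mouse on transcript length and on GC content (log2 per doubling of length and per 10 points of GC), numbered within diet, where AwTw/TWD mouse 5 lies among the STD mice of batch 1.

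The same gradients can be read in each mouse as the slope of its values, relative to the mean over mice, on GC content and on length. The GC slope per 10 percentage points was −0.54, −0.32 and 0.14 (lowest, median and highest) in the STD mice and −0.31, 0.21 and 0.66 in the TWD mice, a difference of 0.44 (exact permutation test within batch over 420 splits, two-sided p = 0.0333, adjusted over 3 measures 0.05, which is not under the threshold). The 4 STD mice of batch 1 and AwTw/TWD mouse 5 were the 5 lowest, and the difference was 0.02 in batch 0 and 0.65 in batch 1 (exact p = 0.0571, where the smallest possible is 0.0286). The slope per doubling of transcript length was −0.05, 0.09 and 0.13 on STD and −0.16, −0.06 and 0.07 on TWD, a difference of −0.11 (exact p = 0.0286, adjusted 0.05), which was −0.00068 in batch 0 and −0.17 in batch 1. The median value of a mouse over all genes, the third measure, differed by −0.06 (exact p = 0.0571).

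When a smooth trend over length and GC content was taken out of every mouse before the fit, 0 genes were called by limma (lowest adjusted p = 0.095), with 4065 genes at an unadjusted p under 0.05. Of 1465 called genes with a known length 1434 kept their sign, and the median difference became 0.27 for the genes that rose and −0.36 for those that fell. In Mocs1 the difference was 0.40 after this step, in Tap1 0.48, in Baiap2l2 0.28 and in Rpusd3 0.27, and Vip and Elf1 changed sign, to 0.14 and 0.22. The median of the ribosomal list went from 0.56 to 0.41, and that of all genes was 0.02. Oxidative phosphorylation went from 0.47 to 0.33, mitochondrial ribosomal proteins from 0.29 to 0.21 and glycolysis from 0.38 to 0.16. The insulin and PI3K list went from −0.31 to −0.17, and disease-associated microglia stayed at 0.23. Among single called genes Pik3r2 went from 0.46 to 0.11 and Apoe from 0.50 to 0.15, whereas Setd2 went from 0.40 to 0.67.

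The batches were compared directly, since the diet difference was close to 0 in the mice of batch 0 for most of the lists above. A test of the difference of the diet effect between batch 1 and batch 0 called 0 genes by limma, with 2357 (14.8%) at an unadjusted p under 0.05, so that no single gene was shown to differ between the batches after adjustment. Batch 1 alone, with 4 mice per diet, gave 3982 called genes, 2278 higher (14.3% of all genes) and 1704 lower (10.7%), and batch 0 alone, with 2 mice per diet, gave 0, with 206 at an unadjusted p under 0.05. Of the 2278 genes called higher in batch 1, 1183 (51.9%) were higher in batch 0 as well, with a median of 0.00 there and 0.64 in batch 1. Of the 1704 called lower, 988 (58.0%) were lower in batch 0 (median −0.03 against −0.90), and over all genes 48.4% were higher in batch 0. Within batch 1 the 4 mice of each diet did not overlap in 2030 genes higher on TWD (12.8%) and 1285 lower (8.08%).

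Mice of the 3 transgenic genotypes, which share no animals with the AwTw comparison, gave the same contrast of diets in other animals. In tau P301L (AwT+), APP/PS1 (A+Tw) and doubly transgenic (A+T+) mice 0 genes were called by limma, with 1183 (7.44%), 705 (4.43%) and 409 (2.57%) at an unadjusted p under 0.05. These genotypes had 6, 5 and 4 mice on STD, of which 3, 1 and 2 were of batch 0. Each had 6 mice on TWD, of which 2, 4 and 4 were of batch 0. In AwTw each diet had 2 of 6 mice in batch 0, so counts and medians are compared across unlike sizes and batch layouts. Of the 956 genes that rose in AwTw mice 916, 930 and 845 were higher on TWD in these genotypes, with medians of 0.21, 0.21 and 0.11 against 0.50 in AwTw, and of the 531 that fell 463, 504 and 433 were lower, with medians of −0.19, −0.27 and −0.10 against −0.65. Over all genes 51.3%, 49.1% and 48.9% were higher. The gradient over GC content had the same direction in these genotypes. The fifth of genes with the lowest GC content had medians of −0.14, −0.20 and −0.07 there. The fifth with the highest had 0.08, 0.12 and 0.06. The part of this gradient in the shared signs was not tested. The diet effect of AwTw mice minus that of each other genotype differed in 0 genes (639, 352 and 1001 at an unadjusted p under 0.05, or 4.02%, 2.21% and 6.3%), and minus the mean of the 3 in 0 genes (1124, 7.07%). With array weights, which give less weight to mice that vary more, the difference from doubly transgenic mice was called in 2887 genes and the other 3 differences again in 0.

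The ribosomal list had medians of 0.36, 0.32 and 0.13 in tau P301L, APP/PS1 and doubly transgenic mice and the oxidative phosphorylation list 0.33, 0.26 and 0.11, beside 0.56 and 0.47 in AwTw. Pik3r1 differed by −0.28, −0.44 and −0.48, Trem2 by 0.31, 0.36 and 0.07 and C1qa by 0.43, 0.36 and 0.18 in the same order. Of the genes whose values did not overlap between the diets in wild-type mice, Mocs1 differed by −0.03, 0.18 and −0.09, Baiap2l2 by −0.31, −0.01 and 0.10, and Gbp4 by −0.06, 0.01 and −0.35 in these genotypes. Their differences in AwTw were 0.64, 0.65 and −0.79, values for which they had been chosen, and none of the 3 passed the test of the difference between genotypes after adjustment.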

How the data were processed

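RNA of the hippocampus was measured in 45 mice, and groups, diets and batches were taken from the sample labels. The authors checked reads with FastQC 0.11.8, trimmed them with Trimmomatic 0.38, removed ribosomal and mitochondrial reads with Bowtie2 2.2.3, quantified transcripts (mm10) with kallisto 0.44.0 and summed them per gene. They dropped genes with few counts on average, stabilized the variance with DESeq2 1.22.2 and removed batch with limma 3.38.3. The values deposited by the authors are therefore on a log2-like scale. They hold no counts, so the depth per mouse is unknown and precision comes from the spread between mice. In the table the mean of each gene is equal in both batches to within 1e-06 for all genes, so batch was removed without the groups. Keeping batch as a covariate allows for that step.

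The test was that of limma 3.58.1 in R 4.3.3 (8 groups and batch in a fit of 45 mice, empirical Bayes with a mean trend, two-sided, Benjamini-Hochberg over 15897 genes), tested on simulated data first. Python 3.11.15, numpy 2.4.6, pandas 2.3.3 and matplotlib 3.10.9 served for the rest. GENCODE M21 (GRCm38) gave lengths, GC content and coordinates of 15695 genes. 157 genes repeat the values of another gene, 1 of them those of Trem2. The length and GC trend was a spline with 5 degrees of freedom for each. Named genes are the 8 called genes with the largest rise and fall without overlap, the 8 smallest p, up to 4 called members per list with up to 3 abundant markers per cell type, 6 genes the study names and 4 label checks. Values of some list members are not reported here. Members and lists were chosen with earlier results of these data known.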

Additional observations from a re-analysis of the deposited data

Results flagged for a closer look

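Among 242 groups of 6 mice examined (121 named genes on 2 diets), 9 held 1 mouse far from the other 5 by Dixon's criterion, which chance marks in about 1 of 20 groups. AwTw/STD mouse 2, rich in choroid plexus, was the highest on its diet for Aif1 (7.15, next 6.69), Mobp (14.07, next 13.67), Rarres2 (8.12, next 7.16) and Bok (9.99, next 9.51). AwTw/TWD mouse 3, also rich in choroid plexus, was the highest for Mbp (16.14, next 15.58), Foxj1 (9.79, next 8.404) and Rsph1 (9.02, next 7.63). AwTw/STD mouse 6 was the highest for Glul, the glutamine synthetase of astrocytes (14.94, next 14.50). AwTw/STD mouse 4 was the lowest for Gm9063 (4.54, next 5.23).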

How the results depend on the processing

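By limma, against 1487 genes called as reported, 0 were called after quantile normalization, centring each mouse on its median, removal of the length and GC trend, addition of a nuisance score (first component of the residuals) or of the label prefix as a covariate, without the mean trend, in batch 0 alone, without the mice rich in choroid plexus or at a threshold of 0.01 (206 genes at an unadjusted p under 0.05 in batch 0 alone, 381 with the nuisance score and 3818 to 6451 in the others), and 1 (Dynlt1-ps1) in the 12 mice alone, also with the trend removed (adjusted p = 0.00834). With the nuisance score the median difference of the 1487 genes shrank to 0.12 for those that rose and −0.16 for those that fell. More were called without the batch covariate (2490), in batch 1 alone (3982), with the choroid plexus level as covariate (2654), among genes above the 25th percentile of mean value (2853), with array weights (7309) and at a threshold of 0.1 (5563), and 1459 with repeated genes counted once. Leaving out 1 mouse gave 0 to 6072. In batch 1 alone 3315 genes did not overlap between the diets. The diet effect of AwTw minus that of A+T+ differed in 2887 genes with array weights. The slope on GC gave 0.65 in batch 1 alone, and without 1 mouse 0.34 to 0.54, that on length −0.13 to −0.0889 and the median value −0.0787 to −0.0475. Before adjustment over the 3 measures, the exact p of the median value fell under 0.05 without AwTw/STD mouse 6 or AwTw/TWD mouse 5 (−0.0784 and −0.0787), and that of the slope on length rose above it without any of AwTw/STD mice 1, 3, 4 and 5 or AwTw/TWD mouse 6, and that on GC without any of AwTw/STD mice 1, 4 and 5 or AwTw/TWD mouse 6. The sign turned in batch 0 alone for Fau (−0.0196), Ndufs5 (−0.0884), Atp5d (−0.0233), Psmb3 (−0.0058), Fasn (−0.12), Pik3r1 (0.0272), Cst3 (−0.0587), Fth1 (−0.0629), Sv2a (−0.0111), Junb (−0.0289), Vip (0.13), Pde10a (0.0149), Mt1 (−0.0199), Prdx5 (−0.0194), Sptan1 (−0.0758), Tsc2 (−0.0696) and Fdps (−0.0151), and for Elf1 (0.0722), Camk2a (−0.0533), Mbp (−0.0302), Mobp (−0.14), Ppp1r1b (−0.18) and Clec7a (0.15), which were not called. With the length and GC trend removed it turned for Vip (0.14), Elf1 (0.22), Camk2a (−0.15), Mobp (−0.0508) and Clec7a (0.16). Among genes not called it also turned after quantile normalization for Camk2a (−0.31), Snap25 (−0.20), Mobp (−0.0294) and Itgax (0.00546), with the nuisance score for Camk2a (−0.0352), Slc1a2 (0.0299), Ppp1r1b (−0.14) and Clec7a (0.17), with the choroid plexus covariate for Camk2a (−0.0156) and Snap25 (−0.00448), without the mice rich in choroid plexus for Camk2a (−0.0899) and in batch 1 alone for Snap25 (−0.0487). Without 1 mouse Camk2a ran from −0.0247 to 0.128, Snap25 from −0.0141 to 0.0792 and Itgax from −0.211 to 0.0655. The refit without choroid plexus rich mice, the trend removal in the 12 mice and the test between batches were added after the data were seen. The cause of these changes was not tested. Depth per mouse is unknown, so low genes could not be judged by counts. No paired analysis was possible because the labels give the mice no shared replicate numbers.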

Other observations

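Called genes were spread unevenly over chromosomes. Genes that rose made up 11.2% of 507 genes on chromosome 19, 10.7% of 1234 on chromosome 7 and 9.63% of 758 on chromosome 17, against 6.01% of all genes, and 2.30% of 435 on chromosome 18. Genes that fell made up 6.72% of 536 genes on chromosome X, 5.32% of 770 on chromosome 6 and 5.23% of 937 on chromosome 1, against 3.34% of all genes. Of 11 genes of the mitochondrial genome 0 were called, where 9.35% of all genes were. Mitochondrial reads had been removed before quantification, so these values are what was left after that step. Protein-coding genes were 95.9% of those that rose, 89.8% of those that fell and 89.4% of all genes. These shares are descriptions of the calls as reported and were not tested.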
